A study of Homo sapiens with 18 samples.

Results

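The genes described here are 33 splicing factors: 12 SR proteins and SR-like TRA2 proteins, 18 proteins of the hnRNP class or bound with it, and 3 factors that recognise the 3' splice site (U2AF1, U2AF2 and SF3B1). They were chosen by name, as a list of SR protein and hnRNP genes, out of 20172 gene symbols on the array. All 33 were on the array and passed the filter on low signal in every comparison. Expression was measured on 18 gene-level microarrays of total RNA from LNCaP (12 arrays) and VCaP (6 arrays), established human prostate cancer lines that respond to androgen. The arrays fall into 4 sets by the array names in the labels: LNCaP sets 1, 2 and 3 with 4 arrays each, and 1 VCaP set of 6. Each set has cells transfected with siControl and treated with vehicle (ethanol) or with R1881, a synthetic androgen. LNCaP sets 1 and 2 and VCaP also have cells transfected with siCTBP1-AS, against an RNA transcribed antisense to CTBP1, and set 3 and VCaP have cells transfected with siPSF, against SFPQ, the RNA-binding protein also called PSF. R1881 was given at 10 nM in sets 1 and 3 and at 1 nM in set 2 and VCaP. The siCTBP1-AS label bears the mark #2 in set 2 and VCaP but not in set 1. All cells, controls included, were transfected 48 h before hormone and kept in serum stripped of steroids, at 2.5% for LNCaP and 5% for VCaP. A group of line, set, siRNA and treatment is thus 1 array, LNCaP siControl has 3 arrays per treatment, and nothing in the labels tells whether arrays hold separate cultures. The p-values therefore reflect the spread among these samples alone, and part of that spread may be technical.

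SR proteins have RNA-binding domains and a tail rich in arginine and serine, and they bind exonic enhancer sequences and recruit the splicing machinery to nearby splice sites. Many hnRNP proteins bind nascent RNA and silence or loop out exons, often in competition with SR proteins, and several of both kinds control their own transcripts through exons that trigger nonsense-mediated decay. U2AF2 and U2AF1 bind the pyrimidine tract and the AG at the 3' end of introns and bring in the U2 particle, of which SF3B1 is a subunit. In prostate cancer cells these proteins are known as regulators of variant transcripts of the androgen receptor, HNRNPA1 and SRSF1 among them.

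The sequence upstream of the start site is shown for members called in an R1881 comparison below (SRSF3, RBMX, HNRNPU and HNRNPF; no window was matched for HNRNPA1), as the 250 bases before the start on the gene's own strand in build GRCh38.p14. Capitals mark matches, on either strand, to the TATA box TATAAA, to the motif CCAAT, to the GC box GGGCGG, to the ETS motif CCGGAAG and to AGAACA, the core that 1 androgen receptor subunit binds. Overlapping matches count each. SRSF3 lies at chr6:36594112-36594361 on the plus strand. RBMX lies at chrX:136880726-136880975, HNRNPU at chr1:244864544-244864793 and HNRNPF, which has 2 starts, at chr10:43397278-43397527 and chr10:43408858-43409107, all on the minus strand. The HNRNPF starts are labelled first and second by ascending coordinate, so on the minus strand the second lies upstream.
SRSF3: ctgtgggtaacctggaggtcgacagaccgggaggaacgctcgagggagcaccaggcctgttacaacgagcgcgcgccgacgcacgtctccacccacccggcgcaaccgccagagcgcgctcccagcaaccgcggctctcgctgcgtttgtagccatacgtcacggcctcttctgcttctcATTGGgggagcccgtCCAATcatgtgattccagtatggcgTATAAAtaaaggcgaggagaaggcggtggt
RBMX: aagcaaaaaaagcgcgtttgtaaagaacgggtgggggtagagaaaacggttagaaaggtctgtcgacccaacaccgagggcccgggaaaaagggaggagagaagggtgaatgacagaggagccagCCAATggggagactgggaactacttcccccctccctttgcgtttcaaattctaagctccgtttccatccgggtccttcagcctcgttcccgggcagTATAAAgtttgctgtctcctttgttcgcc
HNRNPU: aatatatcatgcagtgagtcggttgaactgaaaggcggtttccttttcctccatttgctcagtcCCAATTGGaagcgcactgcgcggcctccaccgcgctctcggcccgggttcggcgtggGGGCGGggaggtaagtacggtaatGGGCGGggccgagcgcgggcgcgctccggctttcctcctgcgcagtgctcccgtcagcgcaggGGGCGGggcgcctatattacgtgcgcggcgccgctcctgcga
HNRNPF, first start: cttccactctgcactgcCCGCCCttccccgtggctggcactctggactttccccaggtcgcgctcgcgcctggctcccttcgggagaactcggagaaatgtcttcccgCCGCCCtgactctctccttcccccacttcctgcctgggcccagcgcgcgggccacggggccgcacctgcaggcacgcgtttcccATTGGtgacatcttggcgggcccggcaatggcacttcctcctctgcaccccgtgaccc
HNRNPF, second start: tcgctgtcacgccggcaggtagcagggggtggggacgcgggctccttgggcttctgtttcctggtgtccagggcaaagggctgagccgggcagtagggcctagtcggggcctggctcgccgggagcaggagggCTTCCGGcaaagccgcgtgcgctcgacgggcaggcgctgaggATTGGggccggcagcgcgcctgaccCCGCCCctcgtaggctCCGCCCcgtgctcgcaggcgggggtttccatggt
SRSF3, which fell with R1881 in LNCaP, and RBMX, which fell in VCaP, both hold a TATA box, 1 each, and a CCAAT box, 2 and 1. HNRNPU holds 2 CCAAT boxes and 3 GC boxes. The first HNRNPF window holds 1 CCAAT box and 2 GC boxes, and the second has the same with 1 ETS motif besides. None of these 5 windows holds AGAACA.

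Windows were found for 30 members, 43 in all, out of 35116 in the table. Their median GC content was 64.8%, against 58% over all windows, and their median number of CpG pairs was 24, against 11. A GC box was present in 55.8% of member windows and 42.6% of all windows, an ETS motif in 11.6% and 8.52%, a CCAAT box in 34.9% and 32%, and a TATA box in 14% and 10.7%. AGAACA was present in 11.6% of member windows, those of HNRNPD, MATR3, SF3B1, SRSF7 and SRSF10, and in 12.4% of all windows. The full palindromic androgen response element was in 0 of 43 and in 1 of 35116. These matches describe letters in a window and say nothing of binding.

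Signals are log2 values, and levels are compared within a set only, since the set medians over all transcript clusters were 6.7, 5.74, 6.8 and 6.25 (sets 1, 2, 3 and VCaP). Over both lines the siRNA against SFPQ lowered its target by 1.18 on the log2 scale (SE 0.135, limma adjusted p = 0.000782). SFPQ read 11.15 and 10.79 in siControl and 10.47 and 9.89 with siPSF in set 3 (vehicle and R1881). In VCaP it read 11.02 and 11.16 against 9.70 and 9.61. The test of VCaP minus LNCaP gave -0.64 (limma adjusted p = 0.0971). No cluster is named CTBP1-AS here, so that knockdown was not checked. CTBP1 itself had -0.05 with siCTBP1-AS over both lines (SE 0.113, limma adjusted p = 0.852). Most of the marker ranges that follow span several sets, so they also hold the gap between set medians. KLK3, the gene of prostate-specific antigen, ran from 10.06 to 13.98 over the 18 arrays. ERG, which VCaP overexpresses through a gene fusion, ran from 3.91 to 5.03 in LNCaP and from 9.01 to 12.11 in VCaP. Of leukocyte markers, PTPRC ran from 2.88 to 3.80, CD3E from 3.63 to 5.08 and CD14 from 4.21 to 6.03. Over both lines CD14 had 0.29 with siPSF and 0.25 with siCTBP1-AS (limma adjusted p = 0.353 and 0.246). Of basal markers, KRT5 ran from 4.49 to 6.05 and KRT14 from 4.82 to 7.065. Of endothelial markers, PECAM1 ran from 3.15 to 5.04, CDH5 from 3.90 to 5.70 and VWF from 3.89 to 6.62. Of 4 fibroblast markers, COL1A1 ran from 6.70 to 8.10, COL1A2 from 4.89 to 6.43 and DCN from 2.96 to 4.67 over all arrays, and LUM from 2.97 to 4.63 in LNCaP and from 4.86 to 10.10 in VCaP.

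With R1881 in LNCaP, HNRNPA1 and SRSF3 fell, and most other members lay slightly below 0 without passing the test. In the fit of all 6 LNCaP pairs of R1881 and vehicle arrays, 2 of 33 members were called at a Benjamini-Hochberg adjusted p of 0.05, both lower, where 15.7% of all 14249 features were called and 7.61% were called lower. Estimates were below 0 for 26 of 33 members, with a median of -0.0654 and a range of -0.39 to 0.20, beside a median of -0.0124 and 53.7% below 0 over all features. Among the 12 SR proteins the median was -0.0553 and 1 fell, among the 18 hnRNP proteins it was -0.0776 and 1 fell, and among the 3 factors of the 3' splice site it was -0.0379 and none was called (0 of 3 by limma, 0 of 3 at an unadjusted p under 0.05). Over all 33 members 9 had an unadjusted p under 0.05. The share of all features at that unadjusted level is not given, here or in later paragraphs. Counts of members at it therefore have no background beside them and are not read as a result. In a culture, fewer cells with a transcript and less of it per cell cannot be told apart.

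HNRNPA1, an abundant hnRNP that represses exons and binds the ends of telomeres, read 12.25, 12.32 and 12.78 on the vehicle arrays of siControl in sets 1, 2 and 3 and 12.27, 11.89 and 12.42 on the R1881 arrays. With knockdown it read 12.16 and 11.84 (set 1, siCTBP1-AS), 12.21 and 12.01 (set 2, siCTBP1-AS) and 12.77 and 12.55 (set 3, siPSF) with vehicle and R1881. It was lower with R1881 in 5 of 6 pairs and level in set 1 siControl. The fitted change was -0.25 (SE 0.0685, limma adjusted p = 0.0374). SRSF3, the smallest SR protein and one that also takes part in mRNA export, read 10.62, 10.26 and 11.78 with vehicle and 10.60, 10.07 and 11.36 with R1881 in siControl. It was lower in all 6 pairs, and its fitted change was -0.24 (SE 0.067, limma adjusted p = 0.0445). Neither call was firm. Leaving out pair 2 siControl, pair 2 siCTBP1-AS, pair 3 siControl, pair 3 siPSF or pair 1 siCTBP1-AS ended both, with adjusted p for HNRNPA1 of 0.0935, 0.0695, 0.109, 0.0883 and 0.0915 and for SRSF3 of 0.0787, 0.0692, 0.128, 0.134 and 0.0954 (in the order given). Without set 2 or set 3 they were 0.163 and 0.22 for HNRNPA1 and 0.113 and 0.307 for SRSF3, whose estimate without set 3 was -0.15, and without set 1 SRSF3 had 0.0609. With each array centred on its median they were 0.062 and 0.0591.

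HNRNPF, which binds runs of G in RNA, was the member with the highest estimate. Its signals in siControl were 10.23, 9.67 and 10.48 with vehicle and 10.52, 9.85 and 10.54 with R1881, and all 6 pairs were higher with R1881, as was the case for 10.4% of features. Its estimate was 0.20 (SE 0.0596, limma adjusted p = 0.0524). PTBP2, the neuronal relative of the polypyrimidine tract protein PTBP1, had the lowest estimate, -0.39 (SE 0.117, limma adjusted p = 0.0541). In siControl it read 9.36, 9.40 and 9.76 with vehicle and 9.24, 8.52 and 9.28 with R1881. It was lower with R1881 in all 3 of these pairs, and the siCTBP1-AS pair of set 1 went the other way, from 9.63 to 9.71. Without that pair PTBP2 passed the test (-0.49, adjusted p = 0.0259), as it did without set 1 (-0.57, adjusted p = 0.0163). RBMX, the X-linked hnRNP G, had -0.25 (SE 0.0789, limma adjusted p = 0.0667), and was level in both pairs of set 1 and lower in the 4 other pairs. The plot of signals on each array shows these genes.

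**Figure D1:**
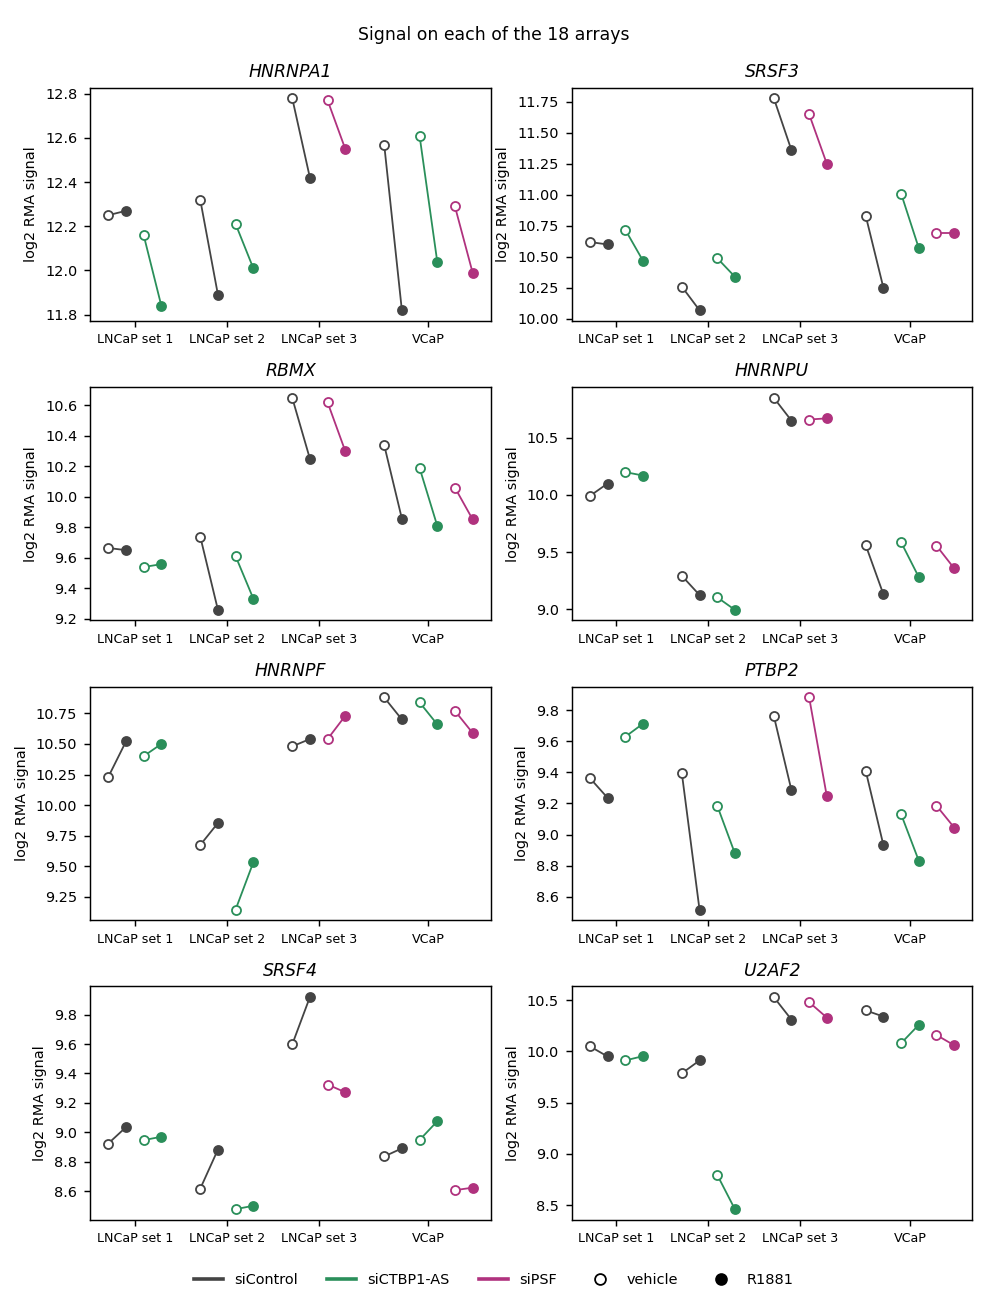
Log2 RMA signal (vertical axis, its own range per gene) of 8 genes on each of the 18 arrays, grouped by array set, with lines joining vehicle (open) and R1881 (filled) of 1 siRNA. HNRNPA1 is lower with R1881 in every VCaP pair and in 5 of 6 LNCaP pairs, HNRNPF is higher in LNCaP and lower in VCaP, and U2AF2 is low on the siCTBP1-AS arrays of set 2 (8.80 and 8.46).

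Other members lower in all 6 pairs were TRA2A, which activates exons through purine-rich enhancers, HNRNPA0, which binds AU-rich elements, HNRNPH3 and HNRNPL, which binds CA repeats. With SRSF3 that makes 5 of 33, and 11% of all features were lower in all 6. Their estimates ran from -0.18 (TRA2A and HNRNPA0) to -0.11 (HNRNPL), and none of these 4 passed the test (adjusted p from 0.0974 to 0.157). The SR proteins SRSF1, SRSF5, SRSF9, SRSF10 and TRA2B lay within 0.05 of 0, as did HNRNPR, HNRNPM, PTBP1, HNRNPA2B1, HNRNPH1, U2AF1 and SF3B1. In the siControl arrays alone (3 pairs), 29 of 33 members were below 0 with a median of -0.0851, against -0.0182 and 53.7% of all features. None of the 33 passed the test there (0 called by limma, with 1, PTBP2 at -0.49, at an unadjusted p under 0.05), and 5.13% of all features were called. Without array set 1 as replicate, PTBP2 passed it at -0.68 (adjusted p = 0.0379).

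**Figure D2:**
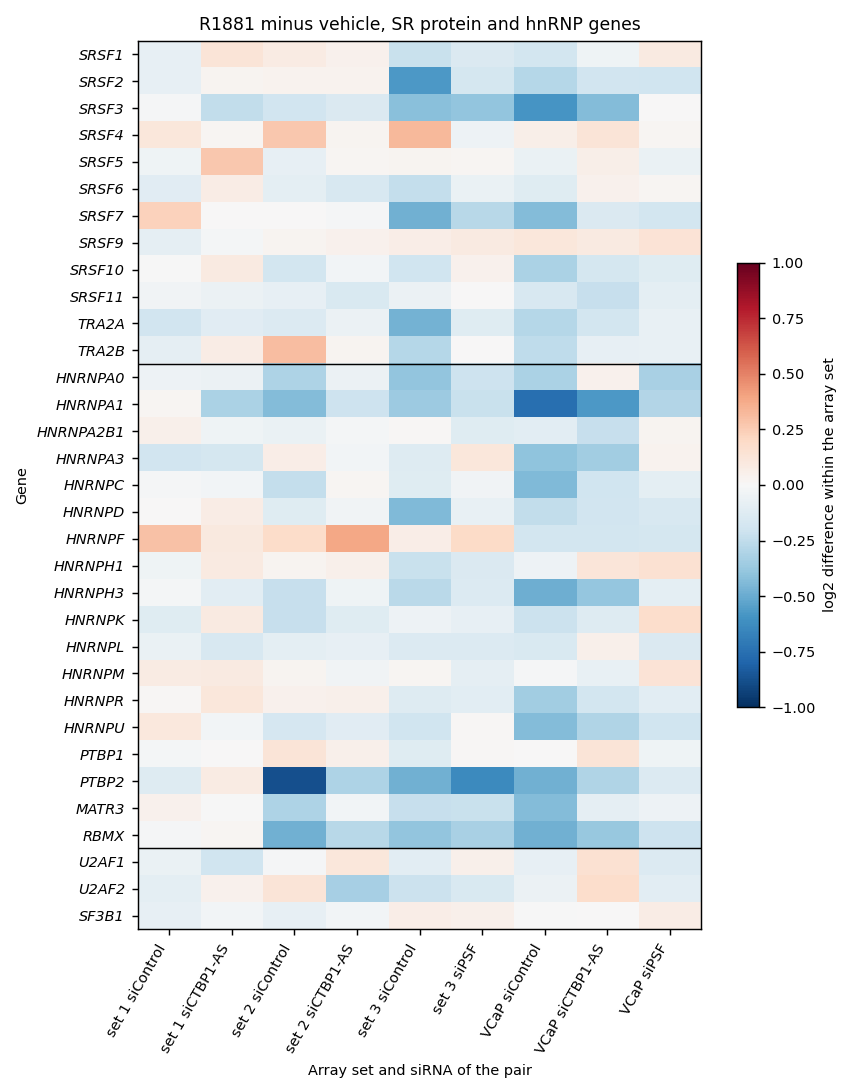
Log2 difference between R1881 and vehicle (colour, from -1 to 1) of the 33 genes in each of 9 pairs, with SR proteins at the top, hnRNP proteins in the middle and factors of the 3' splice site at the bottom. Most cells are pale; HNRNPA1, SRSF3, PTBP2 and RBMX are blue in most columns, and HNRNPF is red in the 6 LNCaP columns and blue in the 3 of VCaP.

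With R1881 in VCaP, 3 hnRNP genes fell: HNRNPA1, RBMX and HNRNPU. VCaP has 1 array per group, so its 3 pairs are those of siControl, siCTBP1-AS and siPSF. No member rose and no SR protein was called (0 of 12 by limma, with 3 of them, SRSF2, SRSF3 and SRSF7, at an unadjusted p under 0.05). Of all features 29.6% were called and 15.9% were called lower, so the 3 of 33 stand below that background. The count was 5 with the lowest 50% of features left out and 10 with a trended robust prior. The shares of all features called under those settings are not given here, so these counts have no background beside them. The median over the members was -0.179, with 26 below 0, while all features had a median of 0.00426 and 49.3% below 0. The hnRNP proteins had a median of -0.198, the SR proteins -0.148 and the factors of the 3' splice site 0.00557. Among fibroblast markers in the same pairs, LUM fell by 3.87 (limma adjusted p = 0.000105), while COL1A1 and COL1A2 had estimates of 0.01 and 0.02 and DCN was below the filter. Of 8 interferon response genes 3 rose and 1 fell, with a median of 0.396. Their part in the values of the members was not tested.

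HNRNPA1 read 12.57, 12.61 and 12.29 with vehicle and 11.82, 12.04 and 11.99 with R1881 (siControl, siCTBP1-AS and siPSF). It was lower with R1881 in all 3 pairs, as were 29.2% of all features. Its fitted change was -0.54 (SE 0.112, limma adjusted p = 0.00967), the lowest of the 33. The call held without any 1 of the 3 pairs (adjusted p of 0.0184 to 0.0443). RBMX read 10.34, 10.19 and 10.06 with vehicle and 9.86, 9.81 and 9.85 with R1881, with a change of -0.36 (SE 0.0977, limma adjusted p = 0.0288). HNRNPU, a large nuclear protein that binds RNA and chromatin scaffolds, read 9.56, 9.59 and 9.56 with vehicle and 9.13, 9.28 and 9.36 with R1881, with a change of -0.31 (SE 0.0952, limma adjusted p = 0.0435). RBMX and HNRNPU were also lower with R1881 in all 3 pairs. Both calls rested on every pair: without siControl, siCTBP1-AS or siPSF the adjusted p was 0.0994, 0.115 and 0.0571 for RBMX and 0.153, 0.141 and 0.0893 for HNRNPU.

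All 3 pairs were lower for 16 members and higher for 2, SRSF4 and SRSF9, against 29.2% and 29.7% of all features. The SR protein genes SRSF7, which takes part in mRNA export and 3' end choice, and SRSF2, which binds exonic enhancers, had estimates of -0.26 and -0.23 (adjusted p = 0.0958 and 0.101, limma). SRSF3 had -0.34 but a wide error (SE 0.127, limma adjusted p = 0.082), since it read 10.69 on both siPSF arrays while it read 10.83 and 11.01 with vehicle and 10.25 and 10.57 with R1881 in the other 2 pairs. Without the siPSF pair it passed the test at -0.51 (adjusted p = 0.0377). HNRNPH3 (-0.32) and PTBP2 (-0.31) missed the threshold with adjusted p of 0.0569 and 0.0579. SRSF9, a small SR protein, had the highest estimate, 0.11 (SE 0.0895, adjusted p = 0.383), with 10.14, 9.96 and 9.94 on the vehicle and 10.25, 10.06 and 10.08 on the R1881 arrays. Its groups overlapped.

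**Figure D3:**
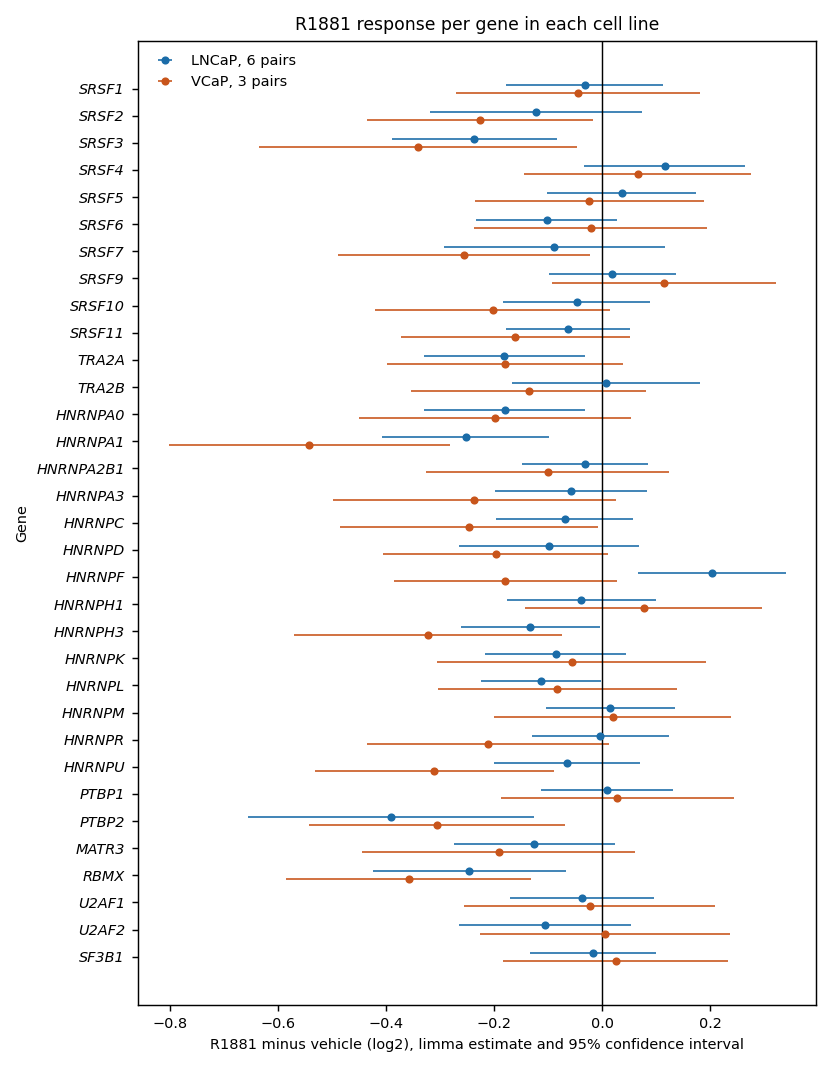
Estimated log2 change with R1881 (horizontal axis; limma estimate as point, 95% confidence interval as bar) of each of the 33 genes in LNCaP (6 pairs) and VCaP (3 pairs). Most points lie left of 0 in both lines, HNRNPA1 in VCaP lies farthest left at -0.54, and HNRNPF is at 0.20 in LNCaP and -0.18 in VCaP.

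The probes that read HNRNPA1 also match its processed copies, so its level is that of the gene together with these copies. It has 5 clusters on the array. Their estimates ran from -0.26 to -0.20 in LNCaP and from -0.55 to -0.54 in VCaP, and the 1 cluster annotated to HNRNPA1 alone, at a mean signal of 6.39, gave -0.20 and -0.55. In LNCaP that cluster did not pass the test (adjusted p = 0.129). RBMX was read from a cluster that also lists RBMXL1, and HNRNPC and HNRNPA3 from clusters that list copies of theirs. TRA2A has another cluster of its own, not used, at a mean signal of 9.26. It gave -0.40 in LNCaP and -0.31 in VCaP, against -0.18 in each line for the cluster used (mean 11.17). In LNCaP this lies below PTBP2 (-0.39), the lowest of the clusters used.

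The response to R1881 differed between the lines for 1 member, HNRNPF, whose signal was higher with R1881 in every LNCaP pair and lower in every VCaP pair. In VCaP it read 10.88, 10.84 and 10.77 with vehicle and 10.70, 10.66 and 10.59 with R1881 (siControl, siCTBP1-AS and siPSF), a drop of nearly the same size in each. The test of VCaP minus LNCaP gave -0.38 (SE 0.0976, limma adjusted p = 0.029), and 11.5% of all features were called in that test. Without VCaP siControl, VCaP siCTBP1-AS, VCaP siPSF, pair 1 siControl or pair 3 siPSF the adjusted p was 0.105, 0.0833, 0.0745, 0.0521 and 0.0508, with differences of -0.38 to -0.36. The larger fall of HNRNPA1 and HNRNPU in VCaP did not pass this test (differences of -0.29 and -0.25, adjusted p = 0.182 and 0.155). Opposite signs in all 6 LNCaP and all 3 VCaP differences were found for this 1 member and for 1.56% of all features. LNCaP set 2 had the same 1 nM dose as VCaP, and its HNRNPF differences were 0.18 and 0.38, against -0.18, -0.18 and -0.17 in VCaP. The lines also differ in serum, and line and serum cannot be told apart here.

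Knockdown of SFPQ moved no member past the threshold. SFPQ is itself a splicing factor and a core protein of paraspeckles, nuclear bodies in which several hnRNP proteins are also found. In the fit of both lines 0 of 33 members were called by limma (2 at an unadjusted p under 0.05), and 1.42% of all features were. The median over members was -0.031, against -0.00395 over all features, with estimates from -0.40 to 0.19. The lowest was SRSF4, an SR protein with a long serine and arginine tail, at -0.40 (SE 0.0913, limma adjusted p = 0.0597). It read 9.60 and 9.92 in siControl and 9.32 and 9.27 with siPSF in set 3 (vehicle and R1881). In VCaP it read 8.84 and 8.89 against 8.61 and 8.62. It was thus lower with siPSF in all 4 comparisons. In a fit without the product terms of siRNA and R1881 it passed the threshold (adjusted p = 0.0352).

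All 4 differences were below 0 for SRSF4, SRSF9, TRA2B, HNRNPL and PTBP1, 5 of 33, where 14.8% of all features had this. They were above 0 for HNRNPA0 and U2AF1, 2 of 33, beside 10.9% of features. TRA2B, the exon activator closest to TRA2A, had -0.25 (limma adjusted p = 0.313). TRA2A had the highest estimate, 0.19 (adjusted p = 0.374), from 11.78 and 11.31 to 11.78 and 11.65 in set 3 and from 11.36 and 11.08 to 11.49 and 11.41 in VCaP. In set 3 it was thus level with vehicle and higher with R1881. The test of VCaP minus LNCaP called no member (0 of 33 by limma, 2 at an unadjusted p under 0.05, with 1.52% of features called). All differences of opposite sign in set 3 and VCaP were found for 6 of 33 members and for 18.8% of features. The lowest value of the test was -0.57 for HNRNPH3 (adjusted p = 0.159), a relative of HNRNPF. Fits of each set alone, added after seeing the data, gave 0 members past the threshold as well, with HNRNPH3 at 0.44 in set 3 (adjusted p = 0.0508) where 6.22% of features were called, and 3.31% in VCaP alone. Interferon response genes moved in VCaP with this siRNA: the median over 8 of them was 2.98 and 3.58 higher there (vehicle and R1881), against -0.10 and 0.23 in set 3, and their part in the values of the members was not tested.

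**Figure D4:**
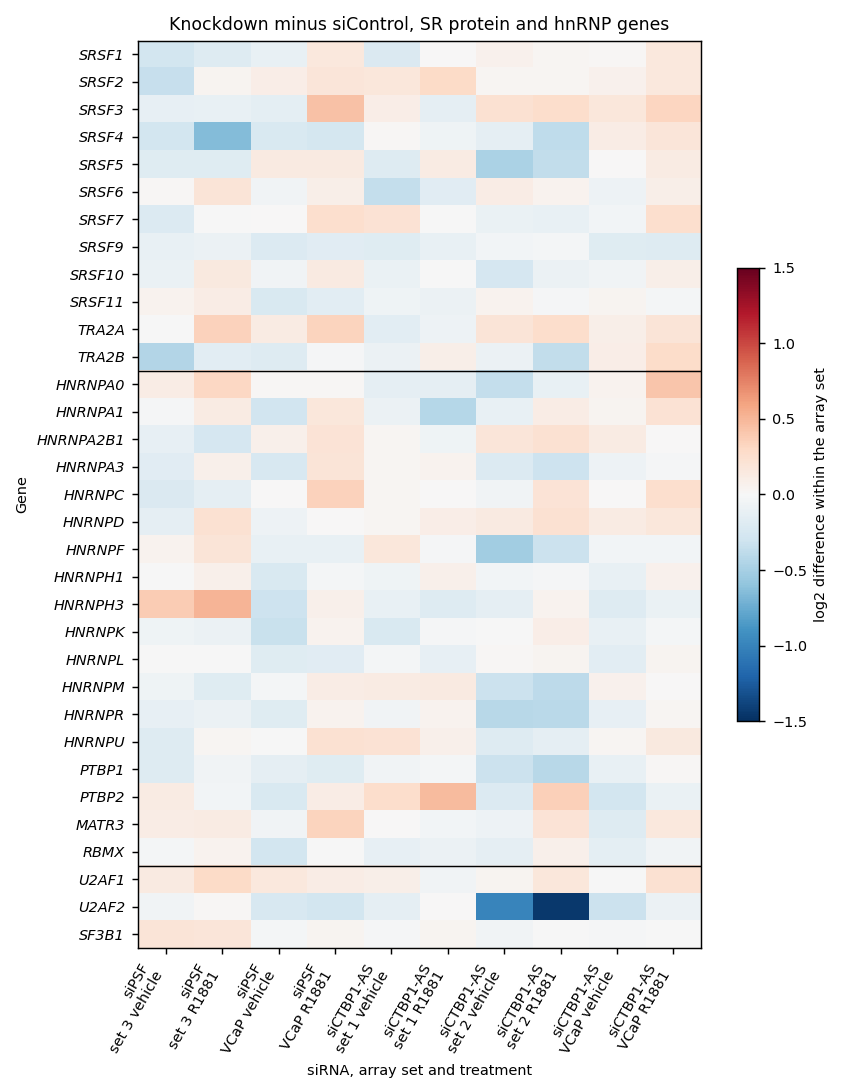
Log2 difference between knockdown and siControl (colour, from -1.5 to 1.5) of the 33 genes for siPSF (4 columns) and siCTBP1-AS (6 columns), by array set and treatment, in the same order of genes as the plot of R1881 differences. U2AF2 in set 2 with siCTBP1-AS stands out at -0.99 and -1.45, and SRSF4 is blue in all 4 siPSF columns.

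Knockdown of CTBP1-AS moved no member past the threshold over both lines either, and 1 gene, U2AF2, was far lower in 1 of the 3 sets. The siPSF and siCTBP1-AS comparisons share the siControl arrays of VCaP. Of 33 members 0 were called by limma (1, U2AF2, at an unadjusted p under 0.05), with 0.561% of all features called, 33 higher and 47 lower. That split was 37 and 100 with each array centred on its median, and 39 and 30 after quantile normalization of all arrays, and no member was called under either. The median over members was -0.0199 and that over all features -0.0166. The highest estimate was that of HNRNPD, also called AUF1, which binds AU-rich elements of unstable mRNAs, at 0.14 (limma adjusted p = 0.405).

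U2AF2, the large subunit of the factor that binds the pyrimidine tract, read 9.79 and 9.91 on the siControl arrays of set 2 (vehicle and R1881). Its siCTBP1-AS arrays there read 8.80 and 8.46. In set 1 it read 10.05 and 9.95 against 9.91 and 9.95, and in VCaP 10.40 and 10.34 against 10.08 and 10.26. The differences were thus -0.99 and -1.45 in set 2 and between -0.32 and 0.00 in the other 2 sets. Over both lines the estimate was -0.46 (SE 0.168, limma adjusted p = 0.173). It was -0.11 without set 2 (adjusted p = 0.58). In a fit of set 2 alone, added after seeing the data, U2AF2 was the only member called, at -1.22 (SE 0.161, adjusted p = 0.0427), with 2.87% of features called there. The same fits of set 1 and of VCaP called 0 members by limma (1, PTBP2 in set 1, at an unadjusted p under 0.05), with 0.702% and 0.218% of features called. The difference between set 2 and set 1 was -1.15 (SE 0.2, adjusted p = 0.0537), past no threshold, and 1.66% of features were called in that test, which was also added after seeing the data. The gap was present on the vehicle arrays, which had no R1881 (-0.99 in set 2 and -0.14 in set 1). Sets 2 and 1 also differ in the siRNA mark, and mark and set cannot be told apart between them. VCaP, which has the same mark as set 2, had -0.32 with vehicle.

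Other members low in set 2 with siCTBP1-AS were HNRNPF (differences of -0.53 and -0.32 with vehicle and R1881), SRSF5 (-0.47 and -0.37), HNRNPR (-0.42 and -0.41), PTBP1 (-0.33 and -0.41) and HNRNPM (-0.32 and -0.39). In the fit of set 2 alone they had adjusted p of 0.127 to 0.16, and none was called. Over the 3 sets, all 6 differences were below 0 for SRSF9 (6.3% of features) and above 0 for SRSF2 and HNRNPD (4.11% of features). HNRNPD went from 11.38 and 11.39 without to 11.42 and 11.49 under knockdown in set 1, 11.68 and 11.56 against 11.82 and 11.79 in set 2, and 12.22 and 11.98 against 12.34 and 12.16 in VCaP. The test of VCaP minus LNCaP called no member (0 of 33 by limma, 1, HNRNPA0 at 0.42, at an unadjusted p under 0.05, and 0.00702% of features called). Opposite signs in the lines were found for HNRNPA0 alone of the members and for 5.65% of features. Interferon response genes were higher in all 3 sets with this siRNA, with medians over 8 genes of 2.77 and 5.37 in set 1, 2.93 and 3.27 in set 2 and 2.18 and 2.06 in VCaP. Their part in the values of the members was not tested.

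The size of the R1881 response with and without knockdown was compared by product terms. No member passed the threshold for siPSF or siCTBP1-AS (0 of 33 by limma in each, with 0 at an unadjusted p under 0.05), and 0% of all features were called in either. The estimates ran from -0.20 to 0.29 for siPSF and from -0.13 to 0.31 for siCTBP1-AS, with median standard errors of 0.162 and 0.14 and largest ones of 0.372 and 0.322. The medians of the estimates, 0.0801 and 0.0999, beside 0.0158 and 0.0426 over all features, rest on the same siControl arrays as the R1881 responses above.

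Relatives of the members and other splicing genes were taken from lists by name. With R1881, RALY, an hnRNP related to HNRNPC, rose by 0.37 in LNCaP (limma adjusted p = 0.00356) and by 0.83 in VCaP (0.000966), and the lines differed by 0.45 (0.0192). HNRNPDL, the relative of HNRNPD, fell by 0.22 (0.0494) and 0.41 (0.026). These were the calls among the other family members, 2 of 12 tested in LNCaP and 2 of 13 in VCaP, where 15.7% and 29.6% of all features were called. Of the core of the spliceosome, 29 genes were tested. In LNCaP SF3B2, a partner of SF3B1, rose by 0.21, and PRPF3 and SNRNP200, of the tri-snRNP, fell by 0.23 and 0.22. No other gene of the 29 was called there, where 15.7% of all features were called. In VCaP 7 of 29 fell and none rose, with the Sm protein genes SNRPE (-0.64), SNRPG (-0.54) and SNRPD1 (-0.46) among them, and with PRPF4 (-0.58), SF3A3 (-0.40) and SF3B3 (-0.36), where 15.9% of all features were called lower. SNRPE, SNRPD1 and SNRPA differed between the lines (-0.54, -0.57 and -0.33, limma adjusted p = 0.0143, 0.0413 and 0.0463). They were 3 of 29, and 11.5% of all features were called in that test. The list had a median of -0.223 in VCaP and -0.0501 in LNCaP, beside 0.00426 and -0.0124 over all features.

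Among other regulators, ESRP2, which drives epithelial splicing, rose by 0.44 in LNCaP and 0.31 in VCaP (limma adjusted p = 0.0136 and 0.0399). NOVA1, a neuronal splicing factor, fell by 0.89 in LNCaP (adjusted p = 0.000821) and was below the filter on low signal in VCaP. KHDRBS1, also called Sam68, fell by 0.24 in LNCaP (0.0224), and MBNL2, of the muscleblind family, by 0.51 in VCaP (0.00515). These, with ESRP2 in both lines, were 3 of 23 tested in LNCaP and 2 of 21 in VCaP, shares below the 15.7% and 29.6% of all features. Of 7 SR protein kinases tested, which phosphorylate the tails of SR proteins, 0 were called with R1881 in either line. At an unadjusted p under 0.05 there were 0 in the 6 LNCaP pairs and 3 in VCaP. These 3 were SRPK1 (-0.28), CLK3 (0.29) and SRPK2 (0.22), with limma adjusted p of 0.0742, 0.0816 and 0.117. The share of all features at that unadjusted level is not given here, so the count of kinases has no background beside it. With siPSF or siCTBP1-AS over both lines, 0 genes of these 4 lists were called. NOVA1 and ESRP2 in LNCaP, and RALY, SNRPE and PRPF4 in VCaP, were among those that changed more than any of the 33 members in the same line.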

How the data were processed

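Total RNA from 18 samples was hybridised to gene-level arrays. The authors deposited log2 signals, 1 per transcript cluster and array; the submitters' processing notes name RMA and Affymetrix Expression Console 1.1.1. Which arrays were normalized together is not stated in the labels. The platform annotation names 1 symbol for 19460 of 33297 clusters, several for 1754 and is silent on 12083. A gene was read from its cluster with the highest mean, also where that cluster lists several symbols (4 of the members). Of 18999 clusters so used, the lowest 25% by mean were left out, which left 14249.

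Fits used limma 3.58.1 in R 4.3.3 (lmFit, eBayes, Benjamini-Hochberg at 0.05), with the array set or pair as a block, because sets were scaled apart. The knockdown fits used all 18 arrays, with the set, R1881 per line, each siRNA and its product with R1881 as terms. Replicate numbers pair the LNCaP siControl arrays, since equal numbers share a set: deviations from group means had r of 0.79, 0.85 and 0.7 for equal numbers and -0.64 to -0.089 otherwise. Without depth, the number of arrays limits the precision. The fits were tested on simulated data. Members and lists were chosen with earlier results of these data known. Given in full are members past the threshold in any comparison and, for each R1881 response and knockdown, the members with the highest and lowest estimate, and from the other lists all past the threshold up to 6 by size. Alternatives were other filters, cluster choices, scalings, priors and blocks, and leaving out replicates, pairs or sets. Promoter sequences are from RefSeq, GRCh38.p14.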

Additional observations from a re-analysis of the deposited data

Results flagged for a closer look

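HNRNPF differed between the lines in its R1881 response by a test of the difference itself, at -0.382 (VCaP minus LNCaP; SE 0.0976, limma adjusted p = 0.029). Its 6 LNCaP pairs were all higher with R1881 and its 3 VCaP pairs all lower.

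With siPSF, 6 members moved one way in both LNCaP set 3 comparisons and the other way in both VCaP comparisons, a share close to the 18.8% of all features that did so. The tests of VCaP minus LNCaP gave 0.322 for SRSF5, 0.233 for SRSF7, -0.277 for SRSF11, 0.323 for HNRNPA2B1, 0.355 for HNRNPC and -0.235 for HNRNPF. None passed the threshold (limma adjusted p from 0.257 to 0.479). With siCTBP1-AS, HNRNPA0 was lower in all 4 LNCaP comparisons and higher in both of VCaP, with a difference of 0.424 (limma adjusted p = 0.501); 5.65% of all features had opposite signs there. Groups of 1 to 3 arrays were too small for a search for single arrays far from the others.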

How the results depend on the processing

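The members followed under the alternatives were HNRNPA1, SRSF3, PTBP2 and HNRNPF with R1881 in LNCaP. With R1881 in VCaP they were SRSF3, HNRNPA1, RBMX, HNRNPU and SRSF9. For siPSF they were SRSF4 and TRA2A, for siCTBP1-AS U2AF2 and HNRNPD, and for R1881 between the lines HNRNPF. None of these changed direction there. Other members named above were not followed in this way. HNRNPH3 with siPSF had 0.44 in set 3 alone and -0.12 in VCaP alone. The count of members called in the 6 LNCaP pairs (2) was 1 without a filter, 1 with clusters of 1 symbol only, 1 with arrays centred (HNRNPF, in place of HNRNPA1 and SRSF3), 4 with the lowest 50% left out, 4 after quantile normalization, 4 with a trended robust prior, 0 with the set as block and siRNA terms, and 0 on the 10 nM sets (an alternative added later). Leaving out pairs or sets gave 0 to 3. The share of all features called is not given for most of these settings or for most of those in VCaP. The member counts there have no background beside them. In VCaP the count (3) was 5 with the lowest 50% left out and 10 with a trended robust prior, and 1 to 2 without a pair. It was 1 in place of 0 for siPSF without product terms (SRSF4) and for siCTBP1-AS in set 2 alone (U2AF2). It ranged from 0 to 1 when a replicate of LNCaP siControl was left out, and from 0 to 1 for the difference between the lines in R1881 without a pair. With no replicate block, LNCaP siControl had 0 members and 36 features called, against 0 and 731 with it, so pairing changed no call on a member. Over all features, without a set the siPSF count of 202 went to 1 (no VCaP) and the siCTBP1-AS count of 80 to 2 (no set 1), 7 (no set 2) and 121 (no VCaP). Without product terms the latter was 426, without a filter 48, with the lowest 50% left out 181 and with arrays centred 137. On the sets that hold the knockdown the counts were 53 and 50. For R1881 the 2237 of LNCaP were 1422 with siRNA terms, 1252 on the 10 nM sets and as few as 589 without set 3, the 731 of siControl ran from 210 to 1214 without a replicate, the 4222 of VCaP were 2640 without siPSF, and the 1634 of the difference were 561 without VCaP siControl. For siPSF between the lines, 216 ran from 82 without a filter to 659 with a trended robust prior, and for siCTBP1-AS 1 became 277 without set 1 and 114 without set 2. The causes were not tested. With 1 to 3 arrays per group, small changes are beyond the reach of these fits.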
